A study of Mus musculus with 6 samples.

Results

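Cholesterol synthesis in these macrophages was followed through 8 listed genes: the transcription factor *Srebf2*, the enzymes *Hmgcs1*, *Idi1*, *Fdft1*, *Sqle* and *Lss*, the sterol sensor *Insig1*, and *Ch25h*, the enzyme that makes 25-hydroxycholesterol. They are a fixed list of names, drawn up with earlier results of these data known but by no threshold on a value, and they are 8 of 36137 genes with a matched transcript. All 8 reached 10 counts over the libraries and were tested, among 18506 genes, although *Ch25h* had 13 counts in all. RNA was sequenced from bone marrow-derived macrophages (BMDMs), which are grown from marrow in medium conditioned by L929 cells, in 3 WT and 3 Drp1KO libraries. Drp1KO BMDMs came from LysM-Cre+/- Drp1 fl/fl mice and WT BMDMs from LysM-Cre+/- Drp1+/+ mice, so both groups carried the Cre, which the lysozyme promoter drives in macrophages and in other myeloid cells such as neutrophils. DRP1, the product of *Dnm1l*, is the GTPase that divides mitochondria. The mice were 8 to 12 weeks old, and marrow of 2 mice per genotype was pooled for a culture. The labels call the libraries biological replicates, but whether each came from a pool of its own was not stated, so the p-values measure the spread between these libraries, which may be technical. On day 7 every culture was placed for 8 hours in serum-free medium under 2.1% oxygen (hypoxia with serum starvation, HSS). All 6 libraries were from HSS, so the values compare genotypes under HSS and say nothing of the response to HSS itself.

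Mammalian cells build cholesterol from acetyl-CoA, first through mevalonate to farnesyl diphosphate and then through squalene and lanosterol to the sterol. SREBP2, encoded by *Srebf2*, is held in the endoplasmic reticulum with its escort SCAP while sterols are plentiful, because sterols make SCAP bind INSIG. When sterols fall, SREBP2 travels to the Golgi, is cut by proteases, and switches on the enzymes and *Insig1*. Serum lipoproteins are a main outside source of cholesterol for cultured cells. 25-Hydroxycholesterol, the product of CH25H, binds INSIG and stops this cleavage, and in macrophages *Ch25h* is known as a gene induced by interferon.

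Sequencing depth, as the sum of kallisto's estimated counts, was 24269850 to 28650715 for WT libraries and 23389488 to 32231206 for Drp1KO libraries. Levels within a gene are given as CPM, counts divided by the scaled library size, with the SD over 3 libraries. The targeted gene, *Dnm1l*, had 72.7, 69.9 and 75.1 CPM in WT libraries 1 to 3 and 58.8, 60.7 and 66.3 CPM in Drp1KO libraries 1 to 3. Its log2 fold change was -0.23 (standard error 0.0921, edgeR adjusted p = 0.248), and a gene total counts reads outside the deleted exons too, so it is a weak check of the labels. Libraries 1 of both genotypes stood apart from libraries 2 and 3 on the second principal component (29.5% of the variance), so the values of the listed genes, and any call that changed, are also given without them. Markers of macrophages were high in every library (summed level of 6 genes 4119 to 4847 CPM in WT and 3752 to 4679 CPM in Drp1KO BMDMs). In the edgeR test, however, 2 of the 6 passed as lower, *Csf1r* and *Mertk* (1.06% of all genes), and 1 as higher, *Fcgr1* (2.29% of all genes). Summed markers of dendritic cells, fibroblasts and lymphocytes each stayed at or below 5.77 CPM, with *Cd209a* at 0. The 10 neutrophil markers summed to 89.5 to 97.3 CPM in WT and 118 to 220 CPM in Drp1KO BMDMs. All 7 that were tested had higher means in Drp1KO, and 0 passed in the edgeR test. An unadjusted p below 0.05 was seen for 5, and the share of all genes higher at that p was not counted. DESeq2 passed 2 (6.24% of all genes) and limma-voom 0. The fit with the replicate number as a block passed 5 (6.73% of all genes as higher). Their part in the results was not tested, and *Ly6g* was at 0 in all libraries.

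**Figure D1:**
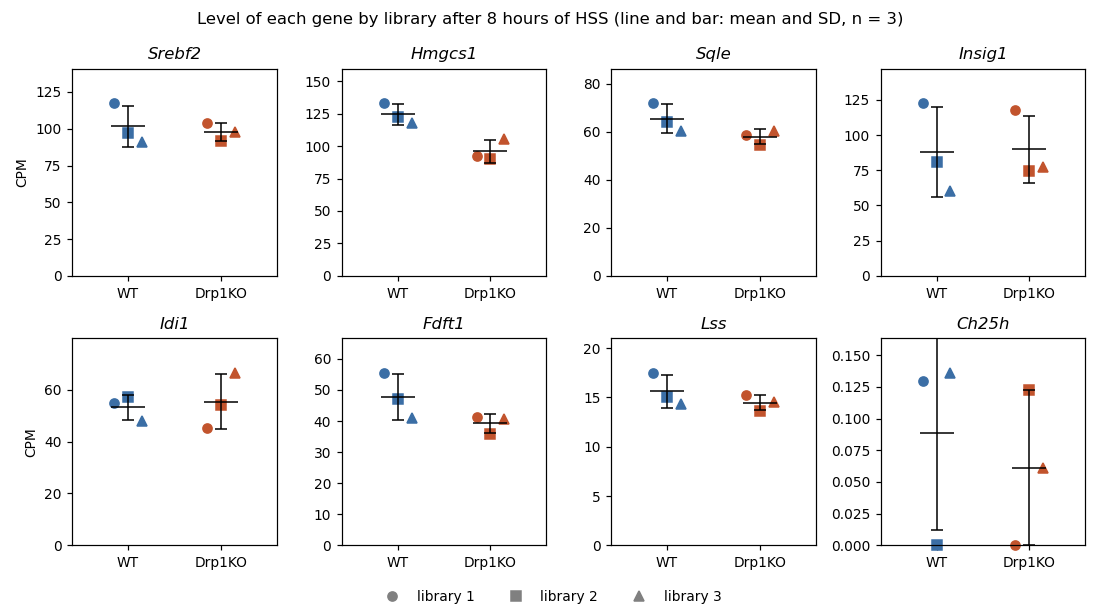
Level of each of the 8 genes in CPM (vertical axis, from 0, own scale per panel) in the WT and Drp1KO libraries; the marker shape gives the library number, the horizontal line the mean and the bar the SD (n = 3). The groups are apart for *Hmgcs1* only, with all Drp1KO libraries at or below 106 CPM and all WT libraries at or above 118 CPM.

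*Hmgcs1* was lower in Drp1KO BMDMs, and this was the largest difference among the 7 genes that could be measured, although it did not pass an adjusted p of 0.05. *Hmgcs1* encodes HMG-CoA synthase, which joins acetyl groups early in the mevalonate part. In GRCm39 it lies on chromosome 13 from 120151915 to 120170470, plus strand. It had 133, 123 and 118 CPM in WT libraries 1 to 3 and 92.0, 89.9 and 106 CPM in Drp1KO libraries 1 to 3. Every Drp1KO library was below every WT library, an order seen without overlap in 21.9% of all genes tested and in this direction in 10.3%. The means were 124 ± 7.89 and 95.9 ± 8.63 CPM (SD, n = 3 each), 22.9% lower, a log2 fold change of -0.38 (standard error 0.0999, 95% confidence interval -0.60 to -0.15). The edgeR quasi-likelihood test gave an adjusted p of 0.0775 over 18506 genes. With the replicate number as a block, the log2 fold change was again -0.38 and the adjusted p was 0.0171. The exact permutation test over libraries gave p = 0.1 (two-sided), the smallest that 3 against 3 libraries can give. Without libraries 1 of both genotypes the log2 fold change was -0.30 (edgeR adjusted p = 0.0830), and over 15 alternative settings the adjusted p ran from 0.0171 to 0.278, with 3 of them below 0.05.

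Of the 8 genes, 0 passed an adjusted p of 0.05 in the edgeR test, in which 3.36% of all genes passed, 2.29% as higher and 1.06% as lower. At an unadjusted p below 0.05 there were 2 of the 8, *Hmgcs1* and *Fdft1*, both lower, against 7.39% of all genes in that direction. With DESeq2 1 of the 8 passed (6.24% of all genes), and with limma-voom 0 did. With the block 1 of the 8 passed, *Hmgcs1*, where 6.73% of all genes passed as higher and 5.22% as lower. The criteria of the study, a log2 fold change beyond 0.32 in either direction with an unadjusted p below 0.05, were also met by 1 of the 8, *Hmgcs1*, and by 12.7% of all genes (7.19% as higher and 5.48% as lower). Leaving out *Ch25h*, 5 of 7 log2 fold changes were below 0, with a median of -0.11, where 49.4% of all genes were below 0 and the median was 0.0046. Under the scaling alternatives the count stayed at 5 of 7. It was 4 of 7 without libraries 1 of both genotypes and 7 of 7 without WT library 3.

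The upstream sequences of *Hmgcs1* and *Insig1* are shown because they alone among the genes' RefSeq promoters (build GRCm38.p6) held the letters CACNCCAC, core letters of a sterol regulatory element, the site that SREBPs bind. The upstream sequence of *Ch25h* is shown beside them as the gene of the set that was nearly silent. Each is 250 bases that end just before the RefSeq start, 5′ to 3′ along the gene, and capitals mark CACNCCAC on either strand.
Hmgcs1, chr13:119690101-119690350, plus strand: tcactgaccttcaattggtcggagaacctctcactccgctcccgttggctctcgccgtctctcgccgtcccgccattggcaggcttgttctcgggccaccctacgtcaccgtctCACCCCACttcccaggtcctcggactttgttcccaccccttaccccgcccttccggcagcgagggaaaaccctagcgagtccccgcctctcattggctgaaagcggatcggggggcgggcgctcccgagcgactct
Insig1, chr5:28071162-28071411, plus strand: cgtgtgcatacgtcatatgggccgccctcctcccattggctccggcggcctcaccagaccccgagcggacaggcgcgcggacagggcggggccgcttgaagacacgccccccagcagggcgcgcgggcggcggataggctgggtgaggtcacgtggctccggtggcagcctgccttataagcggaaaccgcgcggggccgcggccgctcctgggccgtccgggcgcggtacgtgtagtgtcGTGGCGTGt
Ch25h, chr19:34475149-34475398, minus strand: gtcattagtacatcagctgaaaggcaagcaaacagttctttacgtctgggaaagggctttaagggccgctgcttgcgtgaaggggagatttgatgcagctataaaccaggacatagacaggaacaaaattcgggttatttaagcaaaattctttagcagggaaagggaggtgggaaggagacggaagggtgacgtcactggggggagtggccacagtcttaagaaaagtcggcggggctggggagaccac

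The match in *Hmgcs1* began 136 bases before the start, at position -136 on the plus strand of the gene. The match in *Insig1* began at position -9 and read on the opposite strand. In windows of 300 bases, from 250 before to 50 after the start, CACNCCAC was present in 2 of the 6 genes with an entry (*Sqle* and *Fdft1* had none), in 2 of 17 enzymes of the pathway with an entry (*Acat2* and *Hmgcs1* itself) and in 6.24% of 32851 promoters. The letters CCAAT, the core of the NF-Y box, were in 5 of the 6 genes, *Ch25h* being without them, and in 16 of the 17 enzymes, against 37.4% of all promoters. In *Hmgcs1* CCAAT was found 4 times, each on the strand opposite to the gene. GGGCGG, the letters of a GC box, were in 5 of the 6 genes and in 15 of 17 enzymes, against 35.7% of all promoters. The motif of the interferon-stimulated response element was in 0 of the 6 genes, *Ch25h* included, in 2 of the 17 enzymes (*Ggps1* and *Ebp*) and in 3.44% of all promoters. Both strands were searched, and no match of the other motifs overlapped CACNCCAC.

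*Fdft1*, *Sqle* and *Lss* carry the sterol part of the pathway from farnesyl diphosphate to lanosterol, in that order, and all had lower means in Drp1KO BMDMs without passing the test. *Fdft1* encodes squalene synthase, the first enzyme committed to sterols. It had 55.6, 47.0 and 40.8 CPM in WT libraries 1 to 3 and 41.5, 35.8 and 40.7 CPM in Drp1KO libraries 1 to 3. The groups met at WT library 3, which was level with Drp1KO libraries 1 and 3. The log2 fold change was -0.28 (standard error 0.126, edgeR adjusted p = 0.302, with the block 0.0973), and it was -0.20 without libraries 1 of both genotypes and -0.16 without WT library 1. *Fdft1* shares 1184 bases with *Ctsb* on the opposite strand, a lysosomal protease gene with 433970 to 623516 counts per library, and the use of strand in the counting was not stated.

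*Sqle* encodes squalene epoxidase, an oxygen-requiring and rate-limiting enzyme. Its level was 71.9, 64.0 and 60.1 CPM in WT libraries 1 to 3 and 58.8, 54.6 and 60.4 CPM in Drp1KO libraries 1 to 3. Only Drp1KO library 3 reached into the WT range. The log2 fold change was -0.17 (standard error 0.101, edgeR adjusted p = 0.451), with a 95% confidence interval of -0.40 to 0.05, and it was -0.11 without libraries 1 of both genotypes and -0.10 without WT library 1. *Sqle* shares 617 bases with *Washc5* on the opposite strand, a gene with 3195 to 4323 counts per library.

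*Lss* encodes lanosterol synthase, which closes the sterol rings. It stood at 14.3 to 17.5 CPM in WT and at 13.7 to 15.2 CPM in Drp1KO libraries. The ranges overlapped, and the log2 fold change was -0.11 (standard error 0.125, edgeR adjusted p = 0.764, 95% confidence interval -0.39 to 0.17), or -0.06 without libraries 1 of both genotypes. It ran from -0.18 to -0.02 with single libraries left out, nearest to 0 without WT library 1. Between 34.6% and 56.9% of the counts of *Lss* lay on its main coding transcript, and most of the rest on 2 transcripts annotated with a retained intron, so its gene total is not a total of coding mRNA.

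*Idi1* encodes isopentenyl diphosphate isomerase, which balances the isoprenoid building blocks in the mevalonate part. Its level was 54.9, 57.1 and 47.9 CPM in WT libraries 1 to 3 and 45.3, 54.3 and 66.6 CPM in Drp1KO libraries 1 to 3. Drp1KO libraries held both the lowest and the highest value, so the groups overlapped fully. The log2 fold change was 0.06 (standard error 0.141, edgeR adjusted p = 0.912), and its sign turned when WT library 3 (-0.03) or Drp1KO library 3 (-0.09) was left out, while without libraries 1 of both genotypes it was 0.20 (edgeR adjusted p = 0.368).

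*Srebf2* and *Insig1* stand for the control of the pathway, and neither differed between genotypes beyond the spread. *Srebf2* had 117, 96.9 and 90.7 CPM in WT libraries 1 to 3 and 104, 91.7 and 97.6 CPM in Drp1KO libraries 1 to 3. The Drp1KO values lay inside the WT range. The log2 fold change was -0.06 (standard error 0.113, edgeR adjusted p = 0.881, 95% confidence interval -0.31 to 0.19), 0.06 without WT library 1 and 0.01 without libraries 1 of both genotypes. Its full coding transcript, Srebf2-201, took 66.3% to 73.6% of its counts, and Srebf2-205, annotated with a retained intron, took 21.9% to 30.0%.

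*Insig1* encodes the sensor that retains SCAP, and its mRNA is itself a target of SREBP. It had 123, 80.6 and 60.3 CPM in WT libraries 1 to 3 and 117, 74.2 and 77.6 CPM in Drp1KO libraries 1 to 3. Library 1 was the highest in both genotypes, by 0.81 in WT and 0.63 in Drp1KO BMDMs on the log2 scale over the mean of libraries 2 and 3. The genotypes overlapped, and the log2 fold change was 0.03 (standard error 0.246, edgeR adjusted p = 0.982). The 95% confidence interval, -0.52 to 0.58, was the widest of the 7 genes, and the value ran from -0.22 to 0.35 when single libraries were left out. Without libraries 1 of both genotypes it was 0.11 (edgeR adjusted p = 0.672).

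**Figure D2:**
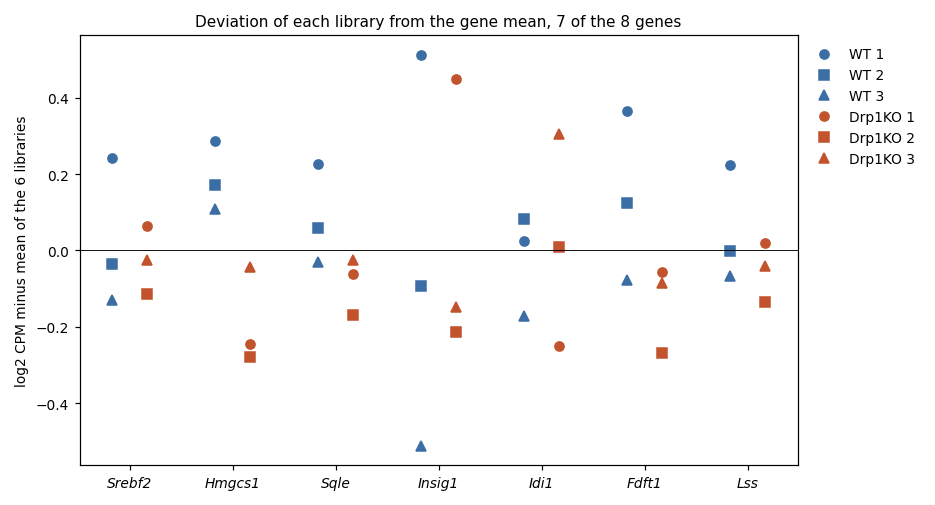
log2 CPM of each library minus the mean of the gene over the 6 libraries (vertical axis) for 7 of the 8 genes, blue for WT and orange for Drp1KO, with the marker shape giving the library number. WT library 1 is the highest WT library for 6 of the 7 genes, and *Insig1* spreads most.

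The spread among libraries of a genotype was shared by several of these genes. WT library 1 was the highest WT library for 6 of 7 genes (all but *Idi1*) and for 16 of the 20 enzymes of the pathway reported here, compared with 47.2% of 12248 genes at 1 CPM or more. Drp1KO library 1 was the highest Drp1KO library for 4 of 7 genes (*Srebf2*, *Insig1*, *Fdft1* and *Lss*) and for 9 of the 20 enzymes, compared with 44.8% of those genes. In *Idi1*, library 1 was instead the lowest Drp1KO library, 0.41 on the log2 scale under the mean of the other two.

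Expression of *Ch25h* was at the limit of detection. It had 3, 0 and 4 counts in WT libraries 1 to 3 and 0, 4 and 2 counts in Drp1KO libraries 1 to 3. In 4 of the 6 libraries it was at or under a floor of 3 counts, which is 0.0917 to 0.136 CPM. The summed counts were 7 in WT and 6 in Drp1KO BMDMs, a ratio of 0.777 per read with a 95% interval of 0.216 to 2.70 that covers counting error only and includes 1, so a difference was not detectable at this depth. In the same libraries a comparison list of 10 interferon-stimulated genes stood higher in Drp1KO for 10 of 10 genes, and 9 of them passed in the edgeR test (2.29% of all genes as higher) and 10 with the block (6.73%); the list's median was 2.21 on the log2 scale. In bulk RNA, fewer cells that make a transcript and less of it per cell cannot be told apart.

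Compared per length, as TPM summed over a gene's transcripts, *Hmgcs1* had a mean of 56.9 over the 6 libraries, 65.6 ± 1.40 in WT and 48.3 ± 6.40 in Drp1KO BMDMs (SD, n = 3 each). *Insig1* had 49.6 TPM, 50.5 ± 15.8 in WT and 48.8 ± 11.1 in Drp1KO BMDMs, so *Hmgcs1* led in WT and was level with *Insig1* in Drp1KO. Over all 6 libraries, *Idi1* had a mean of 40.2 TPM, *Srebf2* 34.2, *Sqle* 30.6, *Fdft1* 21.7, *Lss* 5.20 and *Ch25h* 0.0805 TPM. From *Srebf2* down, each gene was above the next in 6 of 6 libraries. Above it the order was less fixed: *Hmgcs1* exceeded *Insig1* in 4 of 6 libraries, *Insig1* exceeded *Idi1* in 4, and *Idi1* exceeded *Srebf2* in 5. Among the 20 enzymes the range was wide, from 1.45 TPM for *Acat2*, the thiolase that opens the pathway, to 204 TPM for *Msmo1*, which removes methyl groups from the sterol ring.

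**Figure D3:**
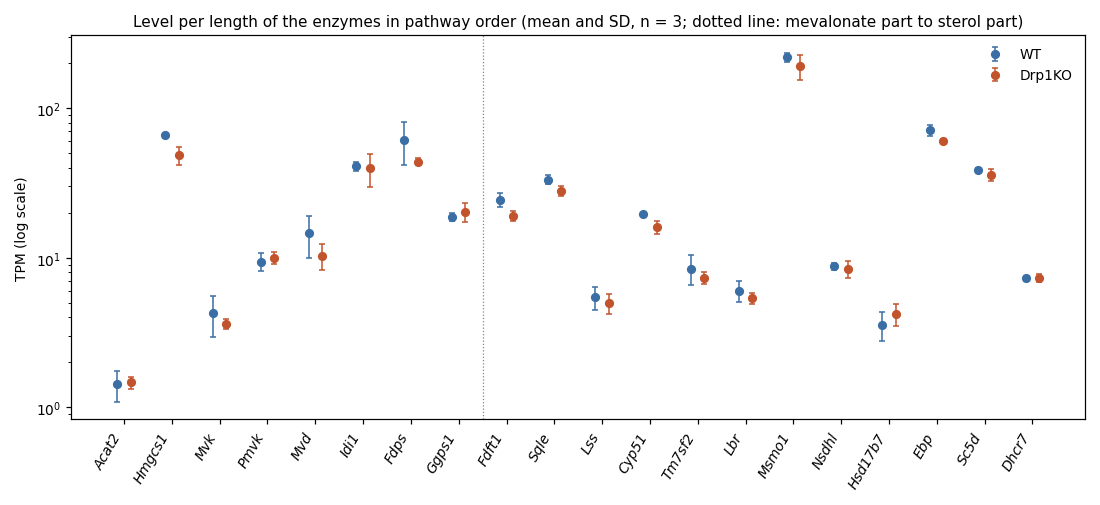
Mean TPM (log axis) of the 20 enzymes in pathway order in WT (blue) and Drp1KO (orange) BMDMs, with the SD over 3 libraries; the dotted line parts the mevalonate enzymes from the sterol enzymes. *Msmo1* is the highest enzyme and *Acat2* the lowest in both genotypes.

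Ratios of TPM within a library, 5 of which are given here, set *Hmgcs1* and its regulators against other genes of the pathway. The ratio of *Hmgcs1* to *Idi1* was 1.57, 1.55 and 1.72 in WT libraries 1 to 3 and 1.49, 1.15 and 1.12 in Drp1KO libraries 1 to 3. Here all Drp1KO libraries were below all WT libraries, by little between WT library 2 and Drp1KO library 1. The means were 0.69 ± 0.08 in WT and 0.31 ± 0.23 in Drp1KO libraries on the log2 scale (SD, n = 3 each). This ratio was given no test, and the share of such ratios without overlap over all genes was not counted. *Hmgcs1* itself had no overlap in CPM, so the order of this ratio is not a separate result. The other 4 ratios, *Hmgcs1* to *Srebf2*, *Hmgcs1* to *Insig1*, *Srebf2* to *Srebf1* and *Insig1* to *Insig2*, overlapped between the genotypes.

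Reads of *Hmgcs1* were shared between 2 main coding transcripts. Hmgcs1-202, which has 11 exons where Hmgcs1-201 has 10, took 13.4%, 18.9% and 13.7% of the gene's counts in WT libraries 1 to 3, and its mean share was 15.3% ± 3.11 in WT and 11.3% ± 1.16 in Drp1KO BMDMs (SD, n = 3 each). The shares of the groups did not overlap, as in 25.2% of 16653 transcripts compared (12.7% with the lower share in Drp1KO). *Insig1*, *Idi1* and *Fdft1* were each carried by a main coding transcript in every library, with at least 91.3% of the counts. For *Sqle*, the transcript Sqle-202 took 21.0% of the counts in Drp1KO library 3 and at most 7.05% elsewhere. kallisto assigns shared reads by estimation, and the files give no error for these shares.

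Across the 20 enzymes reported here, 13 were below 0 and 7 above, the median log2 fold change being -0.08, and 0 passed an adjusted p of 0.05 in the edgeR test. At an unadjusted p below 0.05, 2 were lower, *Hmgcs1* and *Fdft1*, and 1 higher, *Ggps1*. DESeq2 passed 1, *Hmgcs1*, and limma-voom 0. In the mevalonate part 4 of 8 were below 0, and in the sterol part 9 of 12. The count below 0 over the 20 ran from 11 to 16 over the alternative settings. With the block 2 of the enzymes passed as lower, *Hmgcs1* and *Mvd*, and 1 as higher, *Ggps1*, against the 5.22% and 6.73% of all genes given above. Without libraries 1 of both genotypes 2 passed, *Ggps1* and *Hsd17b7*, the latter a ketosteroid reductase named after its values were seen, where 10.5% of all genes passed.

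*Ggps1*, which makes geranylgeranyl diphosphate for protein prenylation and so leaves the road to sterols, had a log2 fold change of 0.34 (edgeR adjusted p = 0.213, with the block 0.0328). Without libraries 1 of both genotypes it was 0.40 (edgeR adjusted p = 0.0464), without Drp1KO library 2 it was 0.22 (edgeR adjusted p = 0.551), and with length-scaled counts it was 0.20 (edgeR adjusted p = 0.566). Its level was 27.4, 30.9 and 28.6 CPM in WT libraries 1 to 3 and 31.1, 42.3 and 36.1 CPM in Drp1KO libraries 1 to 3. Every Drp1KO library was above every WT library, by little for library 1, an order seen in this direction in 11.7% of all genes tested. *Msmo1* and *Ebp*, the most abundant enzymes of the sterol part, had -0.06 and -0.16 (edgeR adjusted p = 0.871 and 0.450). *Mvd*, which was named after its values were seen, had -0.40 (edgeR adjusted p = 0.462, with the block 0.0395).

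**Figure D4:**
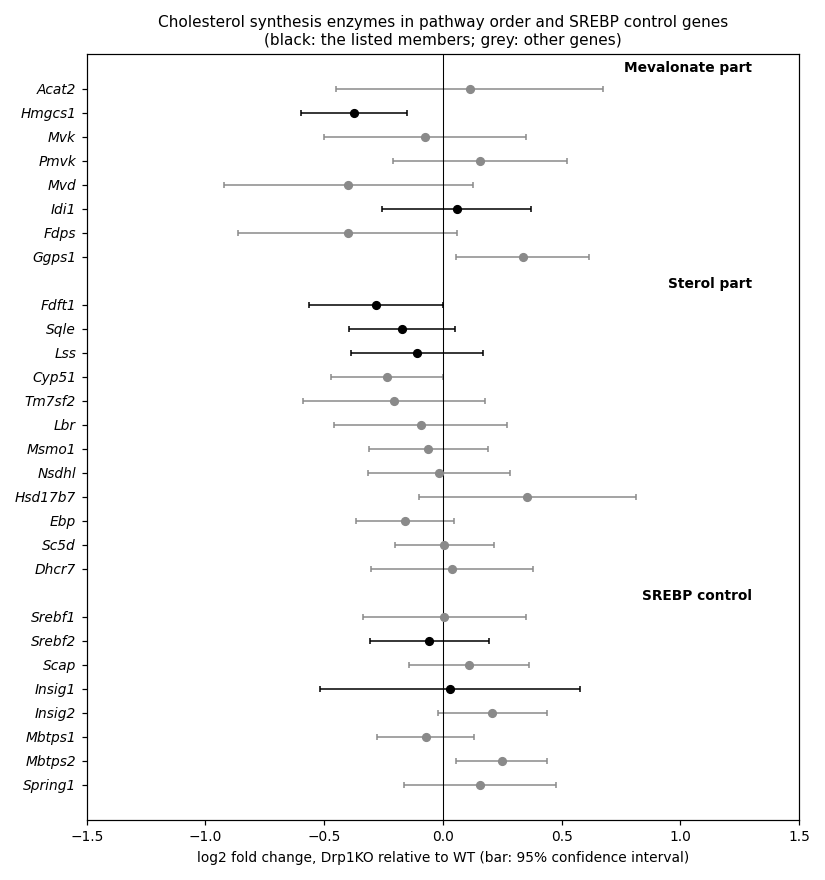
log2 fold change of Drp1KO relative to WT (horizontal axis) with its 95% confidence interval for the 20 enzymes in pathway order and 8 SREBP control genes, black for the listed genes and grey for the others. The intervals of *Hmgcs1* and *Fdft1* lie below 0 and those of *Ggps1* and *Mbtps2* above it, before any adjustment for the number of genes tested.

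Of 8 SREBP control genes, *Srebf2* and *Insig1* included, 6 were above 0 and 2 below, with a median of 0.07, and 0 passed in the edgeR test, with DESeq2, with limma-voom or with the block. At an unadjusted p below 0.05 there was 1, *Mbtps2*, the gene of the site-2 protease (log2 fold change 0.25, edgeR adjusted p = 0.175), named after its values were seen. The list's median turned to -0.01 with length-scaled counts, to -0.0090 without WT library 2 and to -0.02 without Drp1KO library 1, each with 4 of 8 genes below 0. Of 9 genes for the sterol-regulated breakdown of INSIG and of enzymes of the pathway, 0 passed in the edgeR test and 2 had an unadjusted p below 0.05. These were *Rnf139*, a ubiquitin ligase of the endoplasmic reticulum (0.43, edgeR adjusted p = 0.0812, with the block 0.0185), and *Vcp*, the ATPase that pulls proteins out of that membrane (-0.29, edgeR adjusted p = 0.231, with the block 0.0228). DESeq2 passed 1 of the 9 and limma-voom 0. Both passed, at 0.56 and -0.35, without libraries 1 of both genotypes (edgeR adjusted p = 0.00595 and 0.0257), and *Rnf139* passed without Drp1KO library 1 alone (0.0220). *Aup1*, the other abundant gene of that list, had 0.26 (edgeR adjusted p = 0.499), and 0.079 to 0.43 with single libraries left out.

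Over all pathway lists together, 68 of 69 genes were tested, *Cyp7b1* being at 0 counts, and 3 passed in the edgeR test (3.36% of all genes), none of them among the 8 listed genes. *Abca1*, the exporter of cholesterol to apolipoprotein A-I and a target of liver X receptors, fell by 0.51 on the log2 scale (edgeR adjusted p = 0.0297). *Cyp27a1*, the sterol 27-hydroxylase and so another maker of an oxysterol beside *Ch25h*, fell by 0.74 (edgeR adjusted p = 0.0326). *Elovl6*, a fatty acid elongase and an SREBP target, rose by 0.82 (edgeR adjusted p = 0.0160). *Abca1* and *Cyp27a1* did not pass when WT library 2, WT library 3, Drp1KO library 2 or Drp1KO library 3 was left out, nor did *Elovl6* for the first 3 of these, and *Cyp27a1* did not pass with length-scaled counts either (edgeR adjusted p = 0.0742). With the block 15 of the 68 passed, 5 higher and 10 lower, where 6.73% of all genes passed as higher and 5.22% as lower. Without libraries 1 of both genotypes 12 passed, where 10.5% of all genes did.

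The SREBP targets of fatty acid synthesis were split in direction, 5 of 11 above 0 and 6 below, with a median of -0.03. Besides *Elovl6*, values for *Fasn*, the fatty acid synthase, *Me1*, the malic enzyme, and *Acss2*, the acetyl-CoA synthetase, were -0.39, -0.51 and -0.35, with edgeR adjusted p of 0.202, 0.0545 and 0.240 and with the block 0.0575, 0.00852 and 0.0369. *Me1* had -0.47 and passed without libraries 1 of both genotypes (edgeR adjusted p = 0.0428). *Fasn* was -0.24 without WT library 1 and -0.19 with length-scaled counts, and *Acss2* was -0.22 without Drp1KO library 2 (edgeR adjusted p = 0.369, 0.694 and 0.560). *Scd2* and *Acly*, the most abundant genes of the list, had 0.09 and -0.08 (edgeR adjusted p = 0.761 and 0.841). With single libraries left out these ran from 0.026 to 0.178 and from -0.201 to 0.0307. For cholesterol supply, 3 of 6 were above 0. *Npc2* and *Npc1*, whose proteins carry cholesterol out of lysosomes, had 0.35 and -0.08 (edgeR adjusted p = 0.0863 and 0.805, with the block 0.0110 and 0.589). *Npc2* also passed without libraries 1 of both genotypes (0.34, edgeR adjusted p = 0.0347).

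Among liver X receptors and their targets 5 of 7 were below 0, with a median of -0.14. *Apoe*, the apolipoprotein, *Mylip*, a ubiquitin ligase that limits lipoprotein uptake, and *Abcg1*, an exporter to HDL, had -0.65, -0.52 and 0.32 (edgeR adjusted p = 0.187, 0.102 and 0.124, with the block 0.00271, 0.00134 and 0.0160). *Apoe* and *Mylip* passed, at -0.81 and -0.54, without libraries 1 of both genotypes (edgeR adjusted p = 0.0308 and 0.0110) and without Drp1KO library 1 alone, at -0.93 and -0.68 (edgeR adjusted p = 0.0354 and 0.0321). With single libraries left out *Apoe* ran from -0.93 to -0.40. *Hsd3b7*, the most abundant gene of the oxysterol list, had 0.15 (edgeR adjusted p = 0.660), and 0.014 to 0.28 with single libraries left out.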

How the data were processed

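Poly(A) RNA of 3 WT and 3 Drp1KO BMDM cultures after HSS was sequenced. Per the labels and the study's methods, the authors quantified reads with kallisto 0.46.1 against Ensembl cDNA of GRCm39 and deposited, per transcript, estimated counts, not scaled between libraries, and TPM values, scaled for length and depth. The sample labels give 2.1% oxygen for HSS; 2% in the methods of the study was not used here.

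By identifier, 99.4% of 116873 transcripts matched a gene of GENCODE vM39 (GRCm39), and 0.542% to 0.575% of reads on the others were left out. Estimated counts were summed per gene and rounded, and TPM were summed per gene. Genes with at least 10 counts in total were tested with edgeR 4.0.16 (R 4.3.3): TMM, quasi-likelihood test, no covariate, Benjamini-Hochberg adjustment over 18506 genes. CPM are counts scaled by TMM library size. Standard errors and 95% intervals come from that test. The submitters' processing notes name DESeq2 1.44.0, and the study's methods another version of it; DESeq2 1.42.0 and limma-voom (limma 3.58.1) were alternatives here. The test was checked on simulated data. A floor of 3 counts and the intervals of counts cover counting error only. No pair of libraries in a group agreed within sampling noise (chi-square per degree of freedom at least 10.4).

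Replicate numbers are shared between genotypes. Deviations from group means correlated at 0.510, 0.204 and 0.298 for equal numbers over 12248 genes, all over 0.1, and on that ground equal numbers were treated as pairs; the labels do not say so. Different numbers gave -0.443 to 0.326. The highest of these, WT library 2 with Drp1KO library 3, was above the equal numbers 2 (0.204) and 3 (0.298). The correlations therefore set library 1 apart but do not show that libraries 2 and 3 pair by number. All blocked values rest on that assumed pairing. A blocked value stands beside a result of the listed genes, or of a gene or list named, where it changed the call.

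The members and all gene lists were chosen with earlier results of these data known, so lists are described by counts and medians and no set test was run. From the lists, genes past an adjusted p of 0.05 or past the study's criteria and the 2 most abundant per list are named. Promoters are RefSeq windows of GRCm38.p6. A protein table was not used here. Some genes of the lists are not reported here, and counts over all pathway lists and whole-list medians include them.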

Additional observations from a re-analysis of the deposited data

How the results depend on the processing

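Over 15 alternatives, *Sqle*, *Fdft1*, *Lss* and *Dnm1l* kept their direction and did not pass. *Hmgcs1* was lower in all 15 and passed in 3: DESeq2 (-0.39), no filter beyond 1 count (-0.38) and the replicate block (-0.38), with adjusted p of 0.0229, 0.0429 and 0.0171, so the count of the 8 genes passing was 1 in each of these and 0 in the other 12. Leaving out single libraries, *Hmgcs1* ran from -0.45 to -0.32, *Srebf2* from -0.15 to 0.057, *Insig1* from -0.22 to 0.35 and *Idi1* from -0.091 to 0.17, the last 3 changing sign without passing. *Acly* (-0.20 to 0.031), *Msmo1* (-0.17 to 0.0017) and *Npc1* (-0.14 to 0.013) did so too. Without replicate 1 of both groups, an alternative added after seeing the data, *Srebf2* was 0.011. Genes past adjusted p numbered 621, but 1155 with DESeq2, 1065 with no filter, 2212 with the block, 1880 without replicate 1 of both groups, and 181 to 904 with single libraries left out. Adjusted p in place of the study's criteria moved 2345 to 621. Genes of the pathway lists passing numbered 3, but 10 with DESeq2, 5 with library size only, 9 with no filter, 15 with the block, 12 without replicate 1 of both groups and 0 to 7 with single libraries left out. The count of 0 came without WT library 2, WT library 3 or Drp1KO library 2, and 1, *Elovl6*, without Drp1KO library 3. The cause of these changes was not tested. With 3 libraries a group, intervals of the listed genes spanned at least 0.44 on the log2 scale, and *Ch25h*, at 0 to 4 counts, was given no fold change under any alternative. The block changed no other call among the 8 genes.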

Other observations

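Likeness of profile was measured as the root mean square difference in log2 CPM, each gene centred on its mean over the 6 libraries, among 12248 genes at 1 CPM or more. The genes compared share their libraries and depth, and the order is a description. Nearest to *Insig1* were *Ccnf*, *Aurka* and *Ccnb1*, at 0.0754, 0.0780 and 0.0805. These encode cyclin F, Aurora kinase A and cyclin B1, which act in the cell cycle. Nearest to *Hmgcs1* were *Rab11fip3*, *Tjp3* and *Nomo1*, at 0.0443, 0.0470 and 0.0523. *Srebf2* lay nearest to *Asb8*, *Dhx15* and *Akr1b1* (0.0257 to 0.0305), and *Lss* was at rank 8 (0.0370). *Sqle* lay nearest to *Ankrd54*, *Cenpb* and *Tbc1d1* (0.0213 to 0.0373), with *Lss* at rank 17 and the others from 209 (*Srebf2*) to 9204 (*Insig1*). *Fdft1* lay nearest to *Ust*, *Ptprj* and *Rangap1* (0.0229 to 0.0574). *Idi1* lay nearest to *Ermard*, *Bambi* and *Slc22a5* (0.0636 to 0.0720), and *Lss* to *Rplp1*, *Kctd10* and *Smc2* (0.0257 to 0.0289). *Ch25h* was left out for its low counts.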
